A study of Homo sapiens with 8 samples.

Results

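The genes of the ATP-binding cassette (ABC) transporter family were followed across 4 treatment groups of BT-549, an established mesenchymal triple negative breast cancer (TNBC) cell line. Members were chosen by symbol alone, as genes listed with the root ABC, a subfamily letter from A to G and a number, and 43 are described of the 23228 genes listed. Of these, 11 belonged to subfamily A, 8 to B, 12 to C, 3 to D, 1 to E, 3 to F and 5 to G. RNA-seq was performed on 8 libraries, 2 per group, and the deposited values are raw read counts per gene. Cells received vehicle (DMSO), the small molecule EC359 at 100 nM, the histone deacetylase inhibitor (HDACi) vorinostat at 10 µM, or EC359 and vorinostat together at those doses, each for 24 h. EC359 inhibits the leukemia inhibitory factor receptor (LIFR), and the design asks how it modifies the response to the HDACi. All groups are cultures of 1 cell line at 1 dose of each drug and 1 time. The labels number the libraries of a group but do not say that they came from separate cultures, so p-values measure only the spread between these libraries, which may be technical.

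ABC proteins bind and hydrolyse ATP to move substrates across membranes. Subfamilies B, C and G include the pumps known for drug efflux from tumour cells, and subfamilies A and G include exporters of cholesterol and phospholipids. Subfamily D sits in peroxisomes and lysosomes, and the proteins of subfamilies E and F lack membrane domains and act in translation.

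Counts on genes ranged from 19069450 to 24759041 per library, and the ABC genes took 0.0953% to 0.117% of them. The mesenchymal markers VIM, FN1, ZEB1, CDH2 and SPARC were detected in every library, at group means of 23.7 CPM (counts relative to the library total, scaled by the TMM method) or more. Of the markers listed as low in such a line, ESR1 and PGR had 0 counts in both vehicle libraries, and ERBB2 stood at 99.1 ± 4.18 CPM (SD, n = 2). With the combination, ESR1 had 20 and 11 counts and PGR 0 and 1, and ERBB2 stood at 15.3 ± 0.771 CPM with vorinostat and 12.3 ± 0.416 with the combination (SD, n = 2 each). The mesenchymal SPARC went from 3459 ± 1.32 CPM in vehicle to 907 ± 6.33 with the combination (SD, n = 2 each), and VIM from 2111 ± 77.7 to 9376 ± 94.1. The epithelial markers EPCAM and CDH1 had 3 to 6 counts in vehicle. EPCAM had 83 and 50 with vorinostat and 9 and 70 with the combination. CDH1 had 43 and 11 with vorinostat, which was not called (edgeR adjusted p = 0.062). With the combination CDH1 had 1 and 14 counts, on both sides of vehicle. Of 5 markers of other cell types, ADIPOQ was at 0 in all libraries, PECAM1 and KRT14 reached at most 6 counts, and PTPRC reached at most 15. ALB, a hepatocyte marker, had 71 counts in the first EC359 library, 57 in the second vorinostat library and 0 to 11 in the others. The part of these markers in the values of ABC genes was not tested.

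A filter on low counts left 13694 genes for testing, among them 25 of the 43 ABC genes. By subfamily, 6 of 11 passed in A, 5 of 8 in B, 6 of 12 in C, 2 of 3 in D, 1 of 1 in E, 3 of 3 in F and 2 of 5 in G. The other 18 had at most 8 counts in a library and 0 to 20 over all 8. They were ABCA4 (18 counts in all), ABCA6 (1), ABCA8 (6), ABCA9 (2), ABCA13 (16), ABCB1 (8), ABCB5 (4), ABCB11 (0), ABCC6 (15), ABCC8 (3), ABCC9 (13), ABCC11 (11), ABCC12 (6), ABCC13 (0), ABCD2 (20), ABCG1 (1), ABCG5 (0) and ABCG8 (2). ABCB11 is the bile salt export pump of liver, ABCC8 and ABCC9 are regulatory subunits of potassium channels, and ABCG5 and ABCG8 form the sterol exporter of liver and gut. A count of 0 allows up to 3 counts, or 0.124 to 0.154 CPM in a library, and these limits cover counting error only.

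Levels of different genes were compared per kb of transcript. In vehicle, the highest levels belonged to proteins of translation, with ABCF1 at 58.6 and 53.4 CPM per kb and ABCE1 at 47.5 and 46.8. ABCF2 followed at 25.0 and 26.0 CPM per kb and ABCD3, a peroxisomal transporter, at 25.2 and 24.9, and these neighbours overlapped. Among the drug efflux pumps, ABCC4 was highest at 16.3 and 17.6 CPM per kb, ahead of ABCC1 at 9.13 and 9.46. The sterol exporter ABCA1 was near the lower end at 0.0544 and 0.0628 CPM per kb, and ABCG2 lay at 0.0449 and 0.0333.

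**Figure D1:**
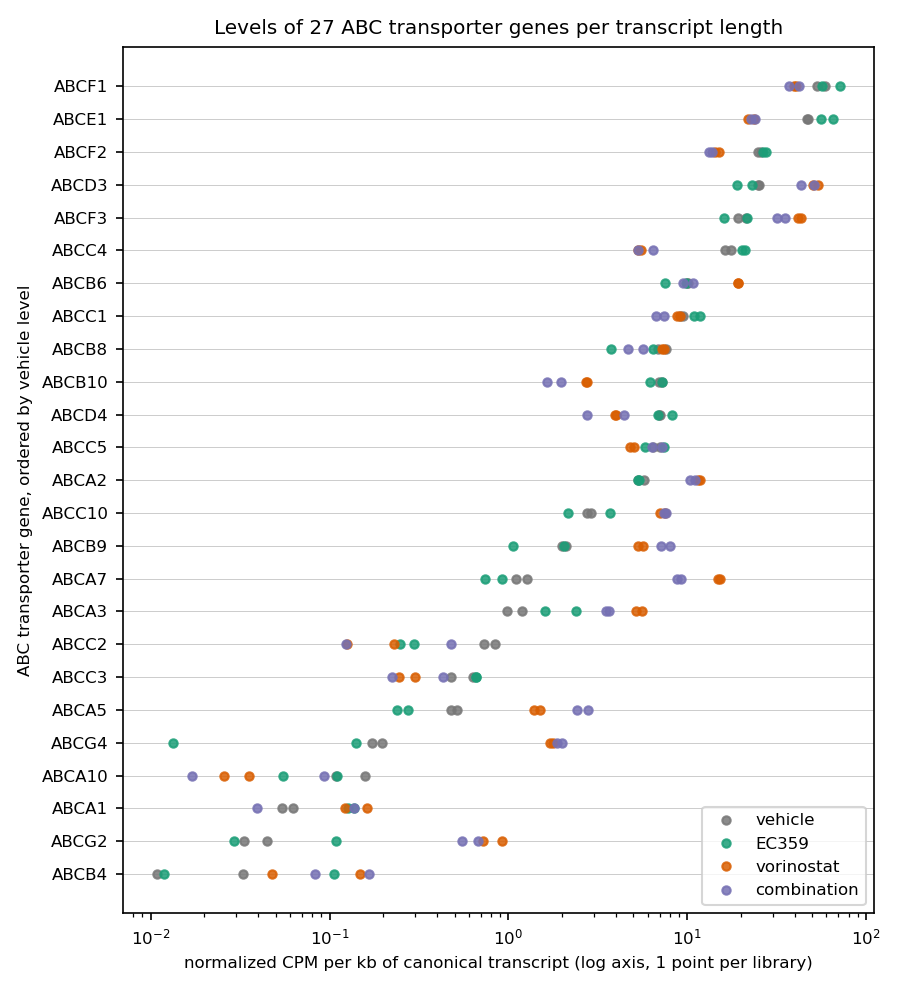
Normalized CPM per kb of canonical transcript on a log axis for the 25 ABC genes that passed the filter, with 1 point per library coloured by group and genes ordered by their vehicle mean. The number of genes in the title drawn on the plot is wrong, and 25 are plotted. ABCF1 and ABCE1 had the highest vehicle levels and ABCB4 the lowest, and the vorinostat and combination points of ABCG2, ABCG4 and ABCA7 lay to the right of their vehicle points.

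To ask how each drug changed the family, the 4 groups were fitted together in edgeR's quasi-likelihood model. A gene was called at a Benjamini-Hochberg adjusted p under 0.01 over all tested genes and an absolute log2 fold change over 1. With vorinostat, 10 ABC genes were higher and 4 lower than in vehicle, of 25. Across all tested genes 16.8% were called higher and 13.3% lower. The genes called higher were ABCA2, ABCA3, ABCA5, ABCA7, ABCB9, ABCC10, ABCD3, ABCF3, ABCG2 and ABCG4, and those called lower were ABCB10, ABCC2, ABCC4 and ABCE1. The median log2 fold change was 0.94 over the 25 ABC genes and 0.03 over all tested genes. ABCG2 and ABCB4 had 10 or more counts in 0 and 1 of the 4 libraries without vorinostat. Both thus passed the filter through libraries with vorinostat, and both lay above this median. The median is the value of ABCB6, and the next lower value was 0.02 (ABCB8), so it leans on these genes. By subfamily, 4 of 6 tested genes rose in A, 1 of 2 in D, 1 of 3 in F and 2 of 2 in G, whereas 1 rose and 2 fell of 6 in C, 1 rose and 1 fell of 5 in B, and the 1 gene of E fell. The counts of risen genes in G and in the family, here and under the combination, include ABCG2, which passed the filter only through libraries with vorinostat.

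Under the combination, 7 ABC genes were higher and 3 lower than in vehicle, against 19.5% and 15.3% of all tested genes. The median log2 fold change was 0.01 over ABC genes and 0.07 over all tested genes. Called higher were ABCA3, ABCA5, ABCA7, ABCB9, ABCC10, ABCG2 and ABCG4, and called lower were ABCB10, ABCC4 and ABCE1. This comparison shares the vehicle libraries with that of vorinostat. Against EC359 alone, the combination had 7 ABC genes higher and 5 lower, beside 19.8% and 13.9% of all tested genes, with medians of 0.14 and 0.06. These were ABCA5, ABCA7, ABCB9, ABCC10, ABCD3, ABCG2 and ABCG4 higher, and ABCB10, ABCC4, ABCD4, ABCE1 and ABCF2 lower.

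**Figure D2:**
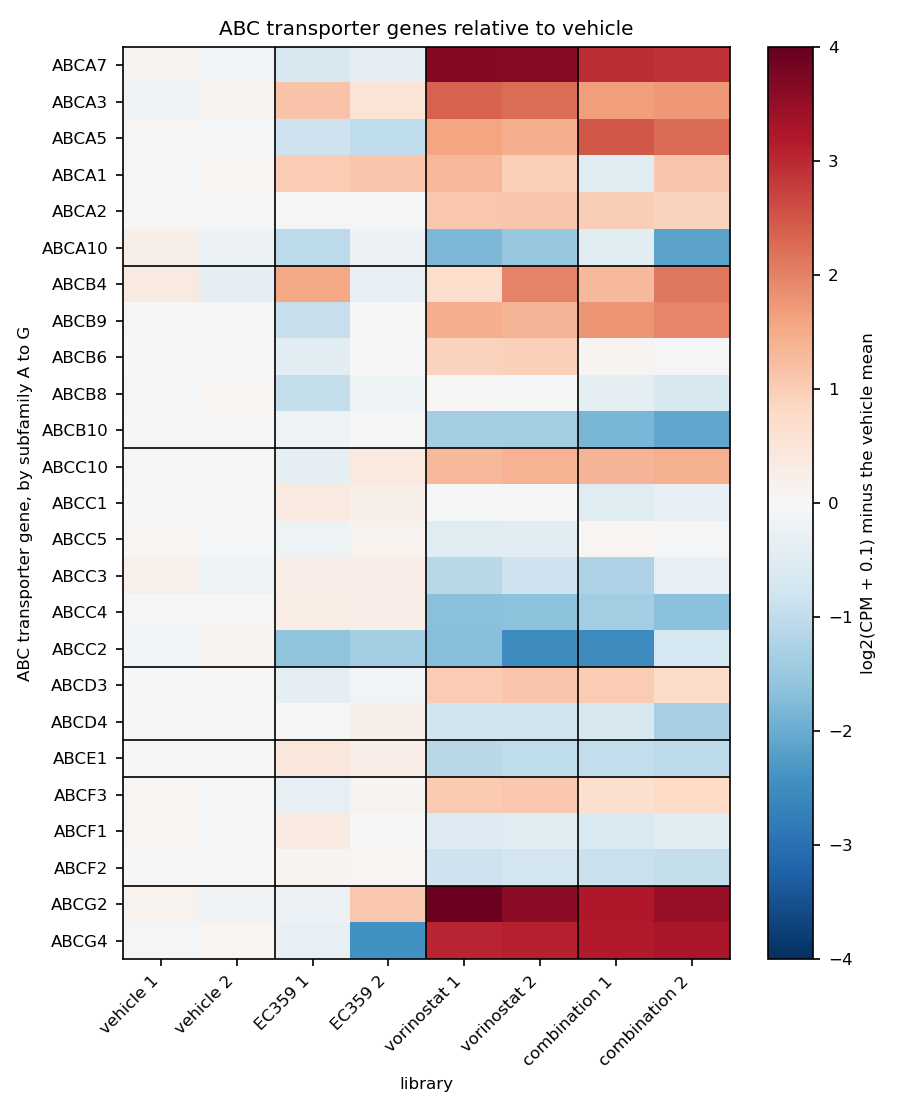
Heat map of log2(CPM + 0.1) minus the vehicle mean for the 25 tested ABC genes (vertical axis, subfamilies A to G parted by lines) in the 8 libraries (horizontal axis), with red above and blue below vehicle. ABCA7, ABCG2 and ABCG4 were the deepest red in the vorinostat and combination libraries, while ABCB10, ABCC4 and ABCE1 were blue in all 4 of these.

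The bases just before the start sites of 4 genes are shown, namely the rise with the largest fold under vorinostat (ABCG2), the rise and the fall with the smallest adjusted p (ABCA7 and ABCC4), and the interaction called by edgeR (ABCA5). The sequences are from RefSeq on GRCh38.p14, 250 bases each, 5′ to 3′ on the strand of the gene. Capitals mark matches on either strand to the GC box, spelled GGGCGG, to the CCAAT box, spelled as its name, and to the E-box, which was searched as CACGTG. ABCA7 holds 1 GC box and 1 CCAAT box, ABCA5 holds 1 GC box, and ABCC4 holds none of these. ABCG2 has 5 start sites in this table, and the window shown, which has no match, lies before the third. The windows of start sites 2 and 4 of ABCG2, which overlap, hold 2 GC boxes and 1 E-box each.
ABCG2, chr4:88159291-88159540, minus strand: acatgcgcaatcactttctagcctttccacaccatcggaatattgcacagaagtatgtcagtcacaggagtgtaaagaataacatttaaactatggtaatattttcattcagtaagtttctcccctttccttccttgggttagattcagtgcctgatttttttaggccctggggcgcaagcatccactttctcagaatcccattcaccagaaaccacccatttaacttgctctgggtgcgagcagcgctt
ABCA7, chr19:1039857-1040106, plus strand: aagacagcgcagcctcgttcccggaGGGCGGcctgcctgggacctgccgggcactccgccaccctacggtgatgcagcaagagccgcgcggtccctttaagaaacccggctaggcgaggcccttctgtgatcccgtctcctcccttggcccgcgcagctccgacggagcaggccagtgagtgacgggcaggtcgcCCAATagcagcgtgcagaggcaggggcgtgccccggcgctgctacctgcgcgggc
ABCA5, chr17:69327134-69327383, minus strand: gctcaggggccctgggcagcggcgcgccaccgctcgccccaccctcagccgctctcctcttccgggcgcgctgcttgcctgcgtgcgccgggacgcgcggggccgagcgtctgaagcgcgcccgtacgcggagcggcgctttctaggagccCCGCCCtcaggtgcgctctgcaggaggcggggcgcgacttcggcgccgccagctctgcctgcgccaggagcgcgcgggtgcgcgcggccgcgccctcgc
ABCC4, chr13:95301452-95301701, minus strand: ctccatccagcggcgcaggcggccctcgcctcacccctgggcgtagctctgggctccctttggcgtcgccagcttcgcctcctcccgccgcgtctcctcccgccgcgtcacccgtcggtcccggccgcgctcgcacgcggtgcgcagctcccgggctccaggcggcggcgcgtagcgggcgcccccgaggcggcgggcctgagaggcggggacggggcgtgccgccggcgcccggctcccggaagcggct

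Promoters were found in the table for 34 of the 43 ABC genes, at 51 start sites. A GC box on either strand stood before at least 1 start site of all 10 genes that rose with vorinostat and had a promoter in the table, and of 1 of 4 that fell (ABCB10). The 10 include ABCG2, which passed the filter only through libraries with vorinostat. Its matches stood before its start sites 2 and 4 alone. A GC box also stood in 7 of 8 tested genes that were not called and in 3 of 12 genes under the filter. For comparison, it was found for 75.1% of the 9413 tested genes matched in the table, for 80.5% of those that rose and for 74.2% of those that fell, and in 42.6% of all 35116 promoters of this length. CCAAT boxes stood in 2 of the 10 risen and 0 of the 4 fallen genes and in 4 of 8 that were not called, against 42.4% of tested genes and 32% of all promoters. E-boxes stood in 3 risen genes, ABCG2 among them, in 0 fallen genes and in 3 of 8 that were not called, against 11.1% and 6.34%. The letters TGACGTCA, a cAMP response element core, stood in ABCE1 and in no other ABC gene, against 3.42% and 1.65%. No motif contains another, and a match is a description of the sequence.

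Drug efflux pumps moved in both directions under vorinostat, with 2 of 7 tested members of the efflux list higher, 2 lower and a median log2 fold change of -0.46. Across all tested genes 16.8% were called higher and 13.3% lower. Of the 2 higher members, ABCG2 passed the filter only through libraries with vorinostat. ABCG2, the breast cancer resistance protein, exports many anticancer drugs and is encoded at chr4:89011302-89152780 on the minus strand of GRCh37. It was counted 4 and 3 times in the vehicle libraries, 3 and 9 times with EC359, 75 and 71 times with vorinostat and 45 and 56 times with the combination. These counts equal 0.189 and 0.140 CPM in vehicle, 0.124 and 0.457 with EC359, 3.86 and 3.02 with vorinostat and 2.30 and 2.86 with the combination. The libraries with vorinostat did not overlap those without it. ABCG2 rose 20.2-fold with vorinostat (log2 fold change 4.33 ± 0.55 SE, edgeR adjusted p = 0.000111) and 15.2-fold with the combination (3.93 ± 0.56, edgeR adjusted p = 0.000203). Few vehicle counts underlie both folds. ABCG2 had 10 or more counts in 0 of the 4 libraries without vorinostat and in all 4 with it, so it passed the filter only through the groups where it was high. The combination differed from vorinostat by -0.41 ± 0.38 on the log2 scale (edgeR adjusted p = 0.463).

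ABCC4, which exports cyclic nucleotides, prostaglandins and nucleotide analogues, fell. The gene lies at chr13:95672089-95953729 on the minus strand of GRCh37. Its levels were 95.6 and 103 CPM in vehicle, 123 and 118 with EC359, 31.2 and 32.1 with vorinostat and 37.7 and 31.2 with the combination. Every library with vorinostat lay below every library without it. Vorinostat brought ABCC4 to 0.319 of the vehicle level (log2 fold change -1.65 ± 0.11 SE, edgeR adjusted p = 2.92e-06) and the combination to 0.346 (-1.53 ± 0.11, edgeR adjusted p = 3.23e-06).

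ABCC2, an apical exporter of conjugated organic anions, stood at 4.25 and 4.90 CPM in vehicle, 1.44 and 1.72 with EC359, 1.34 and 0.723 with vorinostat, and 0.716 and 2.76 with the combination. All 6 treated libraries lay below vehicle. The decrease was called with vorinostat (log2 fold change -2.17 ± 0.53 SE, edgeR adjusted p = 0.00588), and the call was lost when either vehicle library or either vorinostat library was left out, with values from -1.77 to -2.65. With EC359 the log2 difference was -1.53 ± 0.50 (edgeR adjusted p = 0.0707) and with the combination -1.39 ± 0.50 (edgeR adjusted p = 0.0332). Without the second combination library the latter became -2.71 and was called, as it was in a fit on the 2 groups alone (-1.43).

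ABCC10, a broad pump of lipophilic drugs, rose from 13.9 and 14.7 CPM in vehicle to 35.5 and 37.7 with vorinostat and 37.2 and 38.4 with the combination. With EC359 its libraries stood at 10.9 and 18.6 CPM, on both sides of vehicle. The increase was 2.57-fold with vorinostat (log2 fold change 1.36 ± 0.21 SE, edgeR adjusted p = 0.000425) and 2.65-fold with the combination (1.40 ± 0.21, edgeR adjusted p = 0.00031). On GRCh37, 1.51% of its exon bases are shared with DLK2 on the opposite strand.

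ABCC1, the first multidrug resistance-associated protein, which exports glutathione conjugates, was not called by edgeR in any comparison. Its levels were 59.4 and 61.5 CPM in vehicle, 76.9 and 71.2 with EC359, 59.1 and 56.9 with vorinostat, and 43.6 and 47.9 with the combination. The EC359 libraries were highest and the combination libraries lowest, with no overlap between groups. Against vehicle, the log2 difference was -0.06 ± 0.10 with vorinostat and -0.40 ± 0.10 with the combination, which passed the p threshold (edgeR adjusted p = 0.00533) but not the fold threshold. ABCC3, an exporter of organic anions and bile salts, stood at 3.59 and 2.71 CPM in vehicle, 3.75 and 3.75 with EC359, 1.39 and 1.70 with vorinostat, and 1.28 and 2.45 with the combination. The libraries with vorinostat lay below those without it. Its log2 difference with vorinostat was -1.02 ± 0.34 (edgeR adjusted p = 0.0261), which was called in a fit on those 2 groups alone (adjusted p = 0.00478 in edgeR). ABCC5, an exporter of cyclic nucleotides, stood at 40.9 and 37.4 CPM in vehicle, 33.6 and 43.1 with EC359, 27.8 and 29.1 with vorinostat, and 41.7 and 36.9 with the combination. Its vorinostat libraries were the lowest of the 8, at a log2 difference of -0.46 ± 0.14 (edgeR adjusted p = 0.0173).

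ABCB1, which encodes P-glycoprotein, was barely counted, with 0 and 1 reads in vehicle, 1 and 0 with EC359, 2 and 0 with vorinostat, and 1 and 3 with the combination. No difference was detectable at this depth and no fold is given. Of the remaining efflux genes, ABCC6, ABCC11 and ABCC12 reached at most 5, 4 and 3 counts in a library. ABCC6 has the near-identical copies ABCC6P1 and ABCC6P2, so its counts are uncertain.

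**Figure D3:**
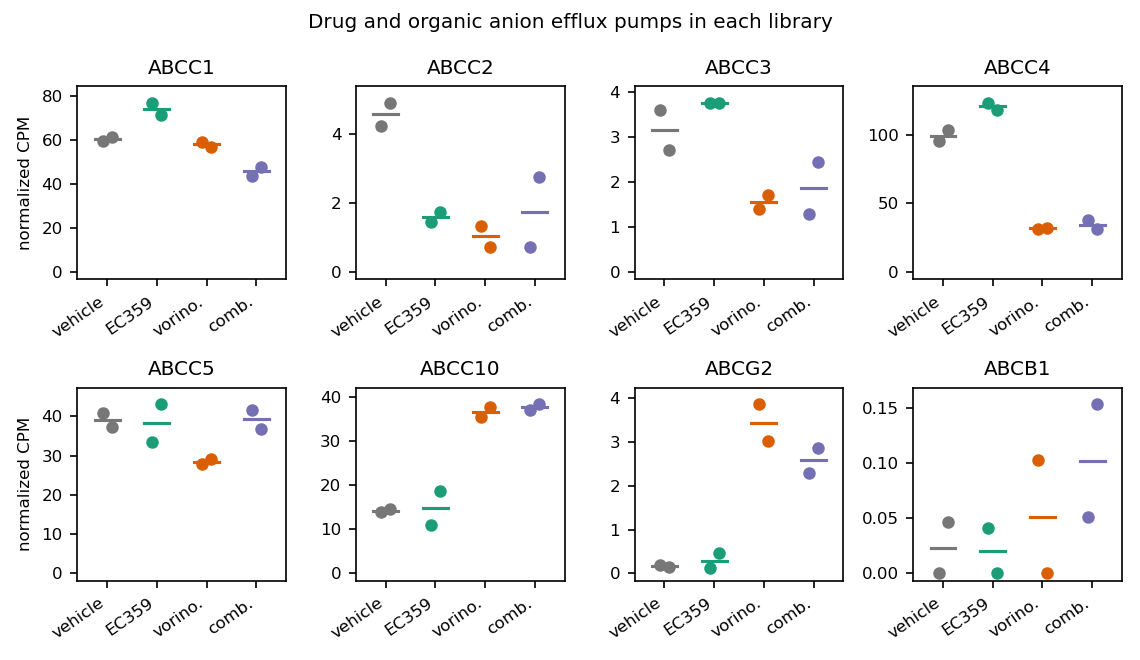
Normalized CPM (vertical axes, from 0, with a separate scale per gene) of 8 efflux pumps in vehicle, EC359, vorinostat (vorino.) and combination (comb.) libraries, with points for libraries and lines for the mean of 2. ABCG2 and ABCC10 stood higher in all 4 libraries with vorinostat and ABCC4 lower, and ABCB1 had at most 3 counts in a library.

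Among exporters of sterols and phospholipids, 2 of 4 tested members rose with vorinostat, ABCA7 and ABCG4. Across all tested genes 16.8% were called higher and 13.3% lower. ABCB4, 1 of the 4, passed the filter through libraries with vorinostat. ABCA7, a phospholipid exporter at chr19:1039996-1065571 on the plus strand of GRCh37, was measured at 8.64 and 7.47 CPM in vehicle, 5.07 and 6.29 with EC359, 104 and 101 with vorinostat, and 62.9 and 59.9 with the combination. All 4 groups were apart. It rose 12.7-fold with vorinostat (log2 fold change 3.67 ± 0.14 SE, edgeR adjusted p = 2.09e-07) and 7.61-fold with the combination (2.93 ± 0.13, edgeR adjusted p = 2.27e-07). ABCG4, a sterol exporter known from brain, lies at chr11:119019762-119033362 on the plus strand of GRCh37. Its levels were 0.661 and 0.747 CPM in vehicle, 0.536 and 0.0507 with EC359, 6.48 and 6.80 with vorinostat, and 7.11 and 7.56 with the combination. The EC359 libraries were lowest, the second of them with 1 read. ABCG4 rose 9.36-fold with vorinostat (3.23 ± 0.42, edgeR adjusted p = 0.000131) and 10.3-fold with the combination (3.37 ± 0.42, edgeR adjusted p = 8.45e-05).

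ABCA1, which loads cholesterol and phospholipids onto apolipoprotein A-I, was low throughout. It stood at 0.566 and 0.654 CPM in vehicle, 1.32 and 1.42 with EC359, 1.70 and 1.28 with vorinostat, and 0.409 and 1.43 with the combination. The EC359 and vorinostat libraries lay above vehicle, and the combination libraries fell on both sides of it. No difference passed the test, with log2 values of 1.16 ± 0.55 for EC359 (edgeR adjusted p = 0.191) and 1.27 ± 0.55 for vorinostat (edgeR adjusted p = 0.0677). A fit on the vehicle and vorinostat libraries alone called the latter (adjusted p = 0.00973 in edgeR). ABCG1, its partner exporter to high-density lipoprotein, had 1 read in the second vehicle library and 0 in the other 7 libraries. ABCB4, a phosphatidylcholine translocase, was counted 3 and 1 times in vehicle, 11 and 1 with EC359, 4 and 15 with vorinostat, and 7 and 14 with the combination, and no difference was called. It had 10 or more counts in 1 of the 4 libraries without vorinostat and in 2 with it, so ABCB4 too passed the filter through the latter.

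The other lipid transporters of subfamily A had 3 of 4 tested members higher with vorinostat, beside 16.8% of all tested genes higher and 13.3% lower. ABCA3, the phospholipid transporter of lung surfactant, stood at 6.51 and 7.85 CPM in vehicle, 15.8 and 10.6 with EC359, 36.7 and 34.1 with vorinostat, and 23.2 and 24.2 with the combination. The groups did not overlap. ABCA3 rose 4.92-fold with vorinostat (log2 fold change 2.30 ± 0.20 SE, edgeR adjusted p = 1.02e-05) and 3.30-fold with the combination (1.72 ± 0.20, edgeR adjusted p = 5.05e-05). ABCA2, an endosomal and lysosomal transporter, rose 2.12-fold with vorinostat, from 46.4 and 42.7 CPM to 93.2 and 95.9 (1.09 ± 0.09, edgeR adjusted p = 1.04e-05). With EC359 it stood at 43.3 and 43.3 CPM, within the vehicle range, and with the combination at 88.9 and 84.1, a log2 difference of 0.96 that was under the fold threshold.

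ABCA5, a lysosomal and endosomal transporter at chr17:67240452-67323385 on the minus strand of GRCh37, had an interaction of the drugs that was called by edgeR. Its levels were 4.25 and 3.92 CPM in vehicle, 2.27 and 1.98 with EC359, 12.4 and 11.4 with vorinostat, and 23.1 and 20.02 with the combination. The 4 groups were apart, with EC359 lowest and the combination highest. ABCA5 rose 2.92-fold with vorinostat (log2 fold change 1.54 ± 0.17 SE, edgeR adjusted p = 4.22e-05) and 5.27-fold with the combination (2.40 ± 0.17, edgeR adjusted p = 2.13e-06).

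ABCA5 ends a row of related genes on chromosome 17 with ABCA10, ABCA6, ABCA9 and ABCA8, and shares 3.85% of its exon bases with ABCA10 on the same strand. ABCA10 stood at 0.944 and 0.654 CPM in vehicle, 0.330 and 0.659 with EC359, 0.154 and 0.213 with vorinostat, and 0.563 and 0.102 with the combination. Its log2 difference with vorinostat was -2.07 ± 0.78 (edgeR adjusted p = 0.0415), which did not pass. ABCA6, ABCA8 and ABCA9 reached at most 2 counts in any library. ABCA4, the retinal flippase, had 0 and 1 counts in vehicle, 0 and 0 with EC359, 4 and 8 with vorinostat, and 0 and 5 with the combination, and was not tested.

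**Figure D4:**
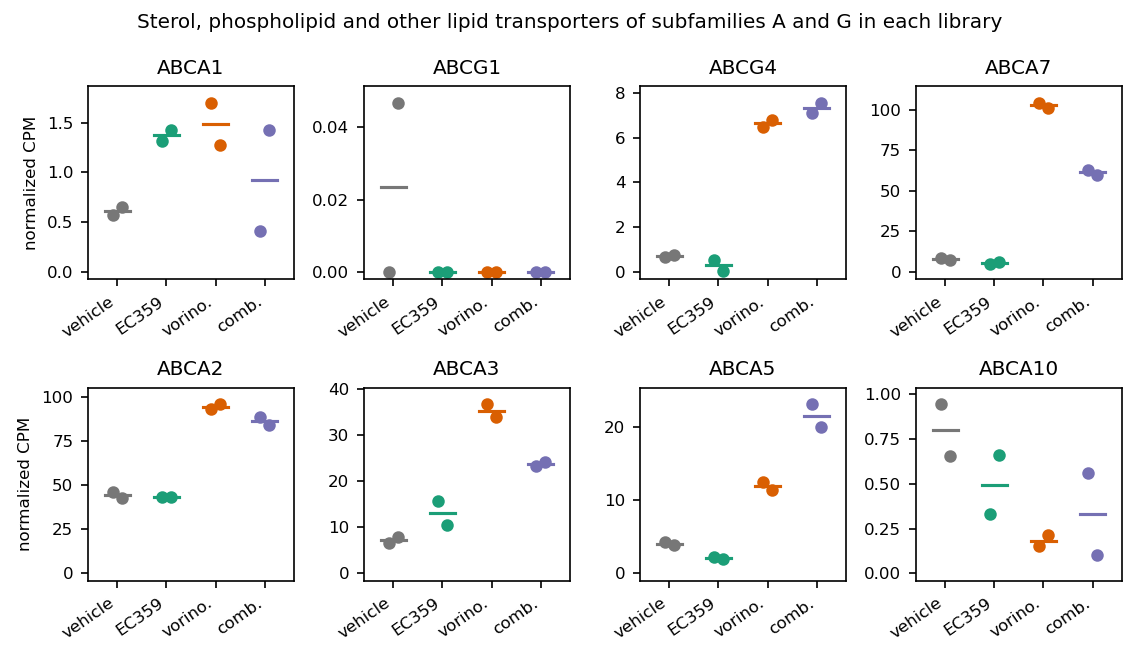
Normalized CPM (vertical axes, from 0, with a separate scale per gene) of 8 lipid transporters of subfamilies A and G by group, with points for libraries and lines for the mean of 2. ABCA7 and ABCA3 were highest with vorinostat alone, ABCA5 was highest with the combination, and ABCG1 had 1 read in all.

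The ABC transporters of mitochondria showed 1 fall among 3 tested genes with vorinostat, beside 16.8% of all tested genes higher and 13.3% lower. ABCB10, which supports haem synthesis, stood at 26.9 and 27.8 CPM in vehicle, 23.8 and 27.8 with EC359, 10.6 and 10.5 with vorinostat, and 7.63 and 6.38 with the combination. The libraries with vorinostat were lower than all others. It fell to 0.386 of vehicle with vorinostat (log2 fold change -1.37 ± 0.14 SE, edgeR adjusted p = 3.58e-05) and to 0.256 with the combination (-1.96 ± 0.15, edgeR adjusted p = 3.88e-06). ABCB6, a porphyrin transporter, stood at 29.7 and 29.9 CPM in vehicle, 22.4 and 29.4 with EC359, 57.1 and 57.3 with vorinostat, and 31.9 and 28.2 with the combination. Vorinostat alone stood apart, at a log2 difference of 0.94 ± 0.14 from vehicle (edgeR adjusted p = 0.000316), just under the fold threshold. ABCB8, linked to mitochondrial iron export, was not called, with group means between 23.7 and 34.2 CPM.

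ABCB9, the lysosomal peptide transporter, rose from 6.99 and 7.33 CPM in vehicle to 19.7 and 18.5 with vorinostat and 24.8 and 27.9 with the combination, and stood at 3.71 and 7.10 with EC359. The libraries with vorinostat did not overlap those without it. The increase was 2.67-fold with vorinostat (log2 fold change 1.42 ± 0.24 SE, edgeR adjusted p = 0.000786) and 3.68-fold with the combination (1.88 ± 0.24, edgeR adjusted p = 0.000118). Without the first vehicle library the vorinostat value was 1.38 and was not called (adjusted p = 0.0103 in edgeR).

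Of the tested transporters of subfamily D, 1 of 2 rose with vorinostat, beside 16.8% of all tested genes higher and 13.3% lower. ABCD3, an importer of branched chain and dicarboxylic acyl-CoAs, stood at 91.0 and 89.7 CPM in vehicle, 68.4 and 83.3 with EC359, 183 and 195 with vorinostat, and 184 and 155 with the combination. Its 2.09-fold rise with vorinostat passed (1.06 ± 0.12, edgeR adjusted p = 6.37e-05), and the combination value of 0.91 ± 0.12 lay under the fold threshold. Against EC359 alone the combination value of 1.16 ± 0.12 was called, and it was 0.99 without the first combination library. ABCD4, which works in lysosomal vitamin B12 export, stood at 21.4 and 21.0 CPM in vehicle, 20.7 and 25.1 with EC359, 12.0 and 12.2 with vorinostat, and 13.5 and 8.38 with the combination. It was called lower in the combination than with EC359 alone (-1.06 ± 0.21, edgeR adjusted p = 0.00161), and this was -0.92 without the second EC359 library and -0.83 without the second combination library. Against vehicle the combination value was -0.95 ± 0.21, and it was called under total-count scaling (-1.04) and without the first combination library (-1.35). ABCD2, with 0 counts in the 4 libraries without vorinostat, had 3 and 8 with vorinostat and 7 and 2 with the combination, and was not tested.

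Of the ABC proteins without membrane domains, ABCE1, the ribosome recycling factor, fell. It stood at 184 and 182 CPM in vehicle, 253 and 219 with EC359, 84.8 and 91.3 with vorinostat, and 93.4 and 88.9 with the combination. The libraries with vorinostat lay below all others. ABCE1 reached 0.481 of vehicle with vorinostat (log2 fold change -1.06 ± 0.10 SE, edgeR adjusted p = 1.92e-05) and 0.497 with the combination (-1.01 ± 0.10, edgeR adjusted p = 2.09e-05). The latter was lost with a filter at 1 CPM (-0.98) or without the first vehicle library (-0.998). On GRCh37, 9.9% of the exon bases of ABCE1 are shared with ANAPC10 and OTUD4 on the opposite strand, and whether counting used strand is not given in the sources used here.

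ABCF3 rose 2.09-fold with vorinostat, from 52.3 and 47.0 CPM to 102 and 105 (1.06 ± 0.14, edgeR adjusted p = 0.000184), and stood at 39.1 and 53.1 with EC359 and 77.2 and 86.2 with the combination. Without the second vehicle library the vorinostat value was 0.99 and was not called. ABCF2 stood at 113 and 117 CPM in vehicle, 125 and 121 with EC359, 65.0 and 68.2 with vorinostat, and 62.1 and 60.0 with the combination. The libraries with vorinostat were the lower ones for ABCF2 and the higher ones for ABCF3. ABCF2 was called lower in the combination than with EC359 (-1.01 ± 0.09, edgeR adjusted p = 1.02e-05), and this was -0.98 without the first EC359 library and -0.99 with a filter at 1 CPM. ABCF1, which acts in translation initiation, stood at 199 and 182 CPM in vehicle, 243 and 192 with EC359, 135 and 138 with vorinostat, and 125 and 143 with the combination, with a log2 difference of -0.48 ± 0.13 for vorinostat.

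EC359 alone left the family without a call. By edgeR, 0 of 25 ABC genes passed both thresholds against vehicle, beside 1.94% of all tested genes higher and 1.72% lower. DESeq2 also called 0, and 8 of the 25 had an unadjusted p under 0.05 in edgeR, as did 30.9% of all tested genes. The median log2 fold change was -0.03 over ABC genes and -0.02 over all tested genes. At an adjusted p under 0.01 without a fold threshold the count was also 0 in edgeR, beside 3.81% of all tested genes higher and 4.01% lower. The log2 fold changes of ABCA5 (-0.94 ± 0.19 SE, edgeR adjusted p = 0.0103) and ABCA3 (0.88 ± 0.20, edgeR adjusted p = 0.0166) did not pass. The EC359 libraries differed from each other more than those of other groups, with an SD over all genes of 0.563 for the log2 difference of the pair, against 0.312 to 0.448 elsewhere. Without the second EC359 library, ABCA3 was called at 1.13, and without the first, ABCG4 was called at -3.65.

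Adding EC359 to vorinostat likewise gave 0 calls of 25 ABC genes by edgeR against vorinostat alone, beside 3.37% of all tested genes higher and 0.876% lower. DESeq2 called 0, and 9 of the 25 had an unadjusted p under 0.05 in edgeR, as did 40.5% of all tested genes. Without the fold threshold 1 ABC gene was higher and 2 were lower, beside 8.45% and 5.26% of all tested genes. ABCA5 was 1.81-fold higher than with vorinostat alone (log2 fold change 0.85 ± 0.15 SE, edgeR adjusted p = 0.00385). ABCA7 stood at 0.598 of its vorinostat level (-0.74 ± 0.12, edgeR adjusted p = 0.00214) and ABCB6 at 0.526 (-0.93 ± 0.14, edgeR adjusted p = 0.00177). ABCB6 in the combination libraries lay on both sides of vehicle, at a log2 difference of 0.01 ± 0.14. With total counts in place of TMM, ABCB6 was at -1.02 against vorinostat and passed the fold threshold.

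The interaction asks whether the effect of EC359 with vorinostat present differed from its effect without it. By edgeR, a positive interaction was called in 1 of 25 ABC genes and a negative one in 0, beside 1.62% and 0.482% of all tested genes, and 9 had an unadjusted p under 0.05, as did 22.4% of all tested genes. ABCA5 was that gene, with a log2 interaction of 1.79 ± 0.24 SE (edgeR adjusted p = 0.00385), from -0.94 for EC359 without vorinostat and 0.85 with it. Its adjusted p in edgeR lay between 0.0178 and 0.0391 when any 1 vehicle, vorinostat or combination library was left out, so the call was then lost. ABCA3 had the opposite sign, at -1.46 ± 0.27 (edgeR adjusted p = 0.0151), and was called in DESeq2 (-1.51, adjusted p = 6.03e-05). ABCC1 stood at -0.63 ± 0.14 (edgeR adjusted p = 0.0291) and was called in DESeq2 too (-0.68, adjusted p = 0.00396).

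**Figure D5:**
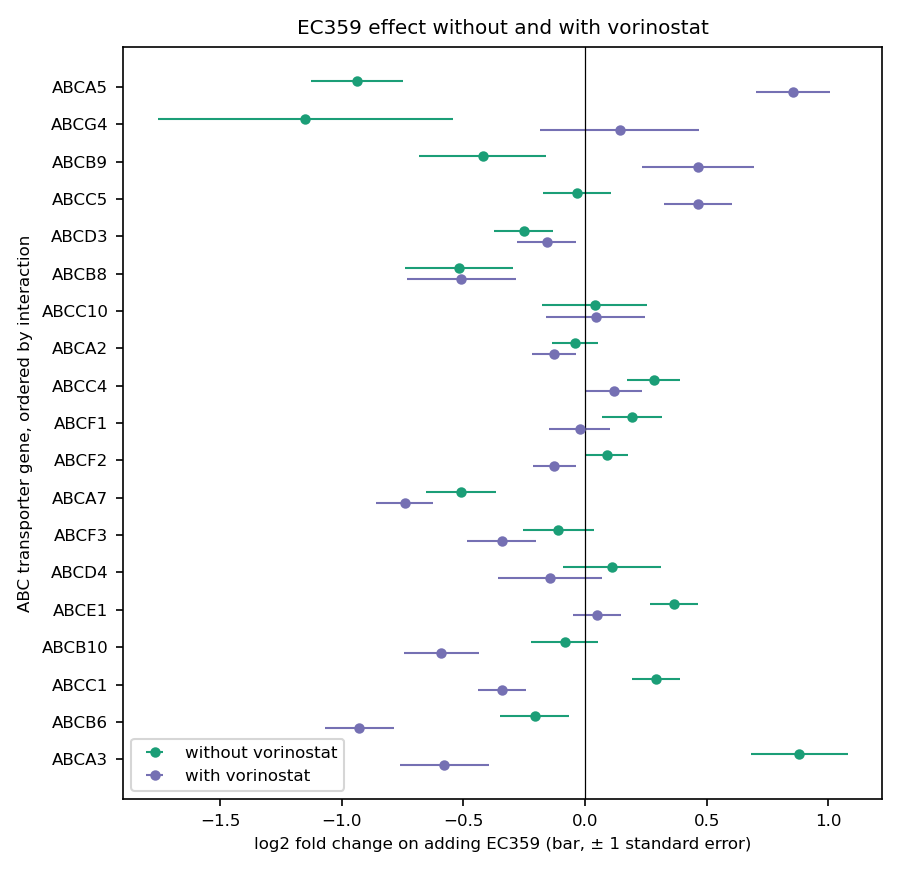
Log2 fold change on adding EC359 (horizontal axis, bars of 1 standard error) without vorinostat (EC359 against vehicle) and with it (combination against vorinostat), for the 19 ABC genes with a mean of 3 CPM or more, ordered by interaction. The pair of points lay on opposite sides of 0 for ABCA5 (-0.94 and 0.85) and for ABCA3 (0.88 and -0.58). The same held for ABCB9 (-0.42 and 0.46), ABCC1 (0.29 and -0.34) and ABCG4 (-1.15 and 0.14). It also held for ABCC5 (-0.03 ± 0.14 and 0.46 ± 0.14 SE) and ABCD4 (0.11 ± 0.20 and -0.14 ± 0.21). The others were ABCF1 (0.19 ± 0.12 and -0.02 ± 0.13) and ABCF2 (0.09 ± 0.09 and -0.13 ± 0.09). At least 1 value of ABCC5, ABCD4 and ABCF1 lay within 1 SE of 0. Of all pairs named here, edgeR called the interaction of ABCA5 only. The share of such pairs over all tested genes was not counted.

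Genes that work with these transporters were taken from lists of general knowledge. Of 16 genes of sterol sensing and efflux, 15 were tested, and 6 rose and 0 fell with vorinostat against vehicle, while 5 rose and 3 fell with the combination and 1 rose with EC359. Over all tested genes, 16.8% were higher and 13.3% lower with vorinostat, 19.5% and 15.3% with the combination, and 1.94% and 1.72% with EC359. NR1H3, which encodes the sterol sensor LXR alpha, rose with vorinostat by a log2 fold change of 1.62 and MYLIP, a ligase that lowers the LDL receptor, by 2.16 (edgeR adjusted p = 0.000662 and 0.000466). NR1H2, which encodes LXR beta, was the more abundant of both LXR genes in vehicle, at 62.8 against 2.61 CPM. It stood at -0.92 with vorinostat (edgeR adjusted p = 0.000981) and was called lower with the combination at -1.25 (edgeR adjusted p = 0.000137). RXRA, the partner of LXR, stood at -0.98 with vorinostat and was called with the combination at -1.34 (edgeR adjusted p = 5.44e-05). NPC1, which exports cholesterol from lysosomes, was the gene that rose with EC359, from 81.8 ± 1.54 to 394 ± 26.2 CPM (SD, n = 2 each). SREBF1, a regulator of lipid synthesis, stood at 352 ± 3.29 CPM in vehicle, 178 ± 17.3 with EC359, 304 ± 4.36 with the combination and 1468 ± 9.49 with vorinostat (SD, n = 2 each), and its log2 interaction was -1.29 (edgeR adjusted p = 0.000635).

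Of 16 genes of xenobiotic sensing, glutathione supply and conjugation, 13 were tested, and 3 rose and 1 fell with vorinostat, 4 rose and 1 fell with the combination, and 1 rose and 1 fell with EC359, to be read against those same shares of all tested genes. GCLC and GCLM, the subunits of the enzyme that limits glutathione synthesis, rose with vorinostat by log2 fold changes of 2.22 and 1.11, and KEAP1, which holds back the transcription factor NRF2, fell by 1.27 on the log2 scale (edgeR adjusted p = 5.94e-07, 1.26e-05 and 0.000157). The nuclear receptors NR1I2 and NR1I3, known as regulators of ABCB1 and ABCC2 in liver, had 0 counts in all libraries. Of the ABC family genes with other symbols, TAP2, a subunit of the antigen peptide transporter, fell with vorinostat (-1.01, edgeR adjusted p = 2.93e-05) and with the combination (-1.30, edgeR adjusted p = 5.2e-06). TAP1 was not called in these comparisons (0.42 and -0.18), and CFTR had 0 counts in all libraries. In bulk RNA, a change in the share of cells that express a gene and a change in RNA per cell cannot be told apart.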

How the data were processed

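RNA-seq of 8 BT-549 libraries, 2 for each of 4 groups, was analysed from the read counts per gene. Per the labels and the study's methods, the authors aligned short single-end TruSeq reads to hg19 with TopHat2 2.0.8b, and HTSeq assigned them to the genes of NCBI RefSeq. The HTSeq version and strand setting are not given in the sources used here. The deposited counts are raw and not normalized, with 19069450 to 24759041 on genes in a library, which limits precision for genes near 0. The 5 HTSeq summary lines were left out, and counts on genes made up 85.1% to 88.1% of the unique alignments.

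Genes were filtered with filterByExpr and scaled by TMM (factors 0.955 to 1.03) in edgeR 4.0.16 under R 4.3.3. The 8 libraries were fitted together with a mean for each group, and quasi-likelihood p-values were corrected over 13694 genes (Benjamini-Hochberg). SE was taken as the size of the log2 fold change over the square root of F. A call needed a log2 fold change beyond 1 in either direction at an adjusted p under 0.01, and an interaction needed the latter alone. The alternatives comprised DESeq2 1.42.0, scaling by RLE or by total counts, other filters and thresholds, 2-group fits, a replicate block and leaving out each library.

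The members and gene lists were chosen with earlier results of these data known, and some genes with the same symbol root are not reported here. By rule, values in every library were given for ABCB1, ABCC1 to ABCC5, ABCG2, ABCA1, ABCG1, every member called in a comparison and the most abundant member of each subfamily. ABCA4, ABCA10, ABCB4 and ABCD2 were added after their values were seen. Coordinates, exons and transcript lengths are from GENCODE on GRCh37, the build of hg19, and promoters from RefSeq on GRCh38.p14. Figures were drawn with matplotlib 3.10.9 in Python 3.11.15.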

Additional observations from a re-analysis of the deposited data

Results flagged for a closer look

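ABCA5 is given a closer look because the effect of EC359 differed with and without vorinostat in a test of that difference. The effect of EC359 with vorinostat minus its effect without it was 1.79 on the log2 scale (edgeR adjusted p = 0.00385). EC359 went with 2.27 and 1.98 CPM against 4.25 and 3.92 in vehicle, and with 23.1 and 20.02 CPM against 12.4 and 11.4 with vorinostat alone. The difference kept its sign in all 15 alternatives tried, between 1.64 and 1.90, with adjusted p-values in edgeR or DESeq2 from 3e-05 to 0.0391, and in 6 of these, each without 1 library, the call was lost, with adjusted p-values of 0.0178 or more. ABCA5 shares 3.85% of its exon bases with ABCA10 on the same strand, and the part of shared reads in this value was not tested.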

How the results depend on the processing

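With 2 libraries per group, small differences in genes of few counts were not detectable. The numbers of ABC genes called against vehicle with vorinostat (14) and against EC359 with the combination (12) stayed within 1.5 times under every alternative tried. Without a fold threshold, 17 ABC genes were called with the combination against vehicle and 3 with the combination against vorinostat, where total counts in place of TMM gave 1. The interaction was called in 3 ABC genes by DESeq2, in 2 without the filter on low counts and in 3 at an adjusted p under 0.05. Leaving out each library in turn gave 0 to 1 calls for EC359 against vehicle, 12 to 14 for vorinostat against vehicle, 10 to 11 for the combination against vehicle, 0 to 0 for the combination against vorinostat, 11 to 13 for the combination against EC359, and 0 to 5 for the interaction. The interaction count was 0 without any single vehicle, vorinostat or combination library and 5 without either EC359 library. The lone library of a group was assumed to vary like the other groups. The cause of these shifts was not tested, apart from the thresholds, which set the counts by construction. The labels do not say whether same-numbered libraries share more than a number. The correlations of their deviations ran from -0.173 to 0.231 over 6 pairs of groups, which cannot settle it. The replicate block gave 0, 14, 10, 0, 12 and 1 calls in EC359 against vehicle, vorinostat against vehicle, combination against vehicle, combination against vorinostat, combination against EC359 and the interaction. Over single genes and settings, 2130 values kept their side of the thresholds, 51 gained a call, 19 lost one and 0 called values reversed.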

Other observations

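ABC pseudogenes share the root of the symbol but were outside the rule by which genes were chosen, and their values are given with no test. ABCA11P stood at 6.18 and 6.91 CPM in vehicle, 5.44 and 5.12 with EC359, 2.11 and 2.13 with vorinostat, and 3.28 and 4.03 with the combination, so that the libraries with vorinostat lay below those without it. ABCA17P reached at most 5 counts in a library, ABCC6P1 6 and ABCC6P2 3.

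The share of all counts on genes that fell on the 43 ABC genes was 0.106% and 0.105% in vehicle, 0.111% and 0.114% with EC359, 0.114% and 0.117% with vorinostat, and 0.0971% and 0.0953% with the combination. The EC359 and vorinostat libraries overlapped and lay above vehicle, and the combination libraries lay lowest.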
